A study of Sus scrofa with 10 samples.

Results

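Neuroactive ligand-receptor genes are the receptors, channels and secreted ligands that KEGG gathers in its pathway of neuroactive ligand-receptor interaction. Among 19972 protein-coding loci measured in pig ovary, 311 listed this pathway. From these, 10 loci that also belong to the complement and coagulation pathway were left out, and so were 11 loci of named gonadotropin, prolactin, growth hormone, glucocorticoid and prostaglandin signalling genes. The remaining 290 loci are described here and are called members. They were chosen by annotation alone, but the pathway itself came up because of the difference between the treatment groups in these pigs. Differences between the groups are therefore given as a description, in which the P of a fit across all mRNAs only sets the limit of a call and supports nothing about the members, whereas levels over all pigs and the balance of related receptors did not enter the choice.

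Most of the receptors in this pathway span the membrane with a bundle of helices and pass a signal to G proteins, which then change cyclic AMP or calcium in the cell. Others are ion channels that a transmitter such as glutamate, GABA, acetylcholine or ATP opens directly. Although the pathway is named for nerves, many of its members act as local or circulating signals in reproductive tissue. Relaxin and oxytocin are made in the corpus luteum of several species, endothelins and angiotensin act on ovarian vessels and follicle walls, and catecholamines reach the ovary through sympathetic nerves.

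Ovary RNA of 10 gilts with the same genetic background, all born on 1 day, was sequenced, with a library for each pig. From an age of 210 days every gilt received altrenogest in its feed (20 mg per day over 18 days), an oral progestin used to synchronise oestrus, and then 2 days without it. The 5 pigs of the rpFSH treatment group were then injected with 1000 IU of rpFSH, a recombinant porcine follicle-stimulating hormone, and the 5 pigs of the control group with saline. At an age of 234 days the ovaries were taken and stripped of their surface follicles, so the values are those of the remaining ovary with its stroma, vessels, inner follicles and any luteal tissue, and not of a purified cell type.

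The values are FPKM, fragments scaled to the length of the gene and to the size of the library, together with a count per locus. The total of counts per pig lay between 64873797 and 75114003, and 3 counts, taken as the smallest number that can be told from 0, correspond to 0.0399 to 0.0462 CPM. This limit covers counting error only. Some libraries stood apart in the summed FPKM of marker genes. The 4 luteal markers (STAR, CYP11A1, HSD3B1 and LHCGR) added up to 2626 in control 2, 1565 in rpFSH 1 and 432 in rpFSH 4, and to between 9.93 and 55.9 in the other 7 pigs. STAR, CYP11A1 and HSD3B1 carried these sums, whereas LHCGR had 2.74, 7.32 and 3.75 in the same 3 pigs and 0.907 to 5.18 in the others. The 4 smooth muscle markers reached 1209.8 in control 5 against 49.7 to 337 elsewhere. The 4 measured markers of ciliated oviduct-type epithelium (FOXJ1, DNAH5, CFAP161 and EPCAM) were at 19.2 in control 2 and 32.5 in control 5, and at 0.197 to 1.66 in the other pigs. The 3 measured granulosa markers were found in every pig, with sums from 1.82 in control 2 to 78.3 in rpFSH 2. Of 8 neuronal and chromaffin markers, 4 had a mean FPKM of at least 0.1, and TH had at most 3 counts in every pig. The sum of this list ranged from 11.4 in rpFSH 3 to 41.4 in rpFSH 1. It was carried by CHGA and UCHL1, with mean FPKM of 12.6 and 14.2. In such bulk samples, fewer cells of a type and less RNA per cell cannot be told apart.

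Neuroactive ligand-receptor members were low in the ovary as a group, with a small number of clearly expressed receptors. The median of the mean FPKM over the 10 pigs was 0.128 for the 290 members and 1.60 for all protein-coding loci. A mean FPKM of at least 1 was reached by 58 members, and at least 5 by 8 members. At least 3 counts in every pig were found for 139 members. In contrast, 30 members had a count of 0 in every pig, and 1 more (GHRH) had at most 3 counts in any pig. These 31 members are 10.7% of all members, and 10.4% of all protein-coding loci had as few counts. Members took between 0.175 and 0.206% of the counts in 9 pigs and 0.601% in control 2. A mean FPKM of at least 0.1 was reached by 155 members, and these are the members that entered the comparison of the groups.

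**Figure D1:**
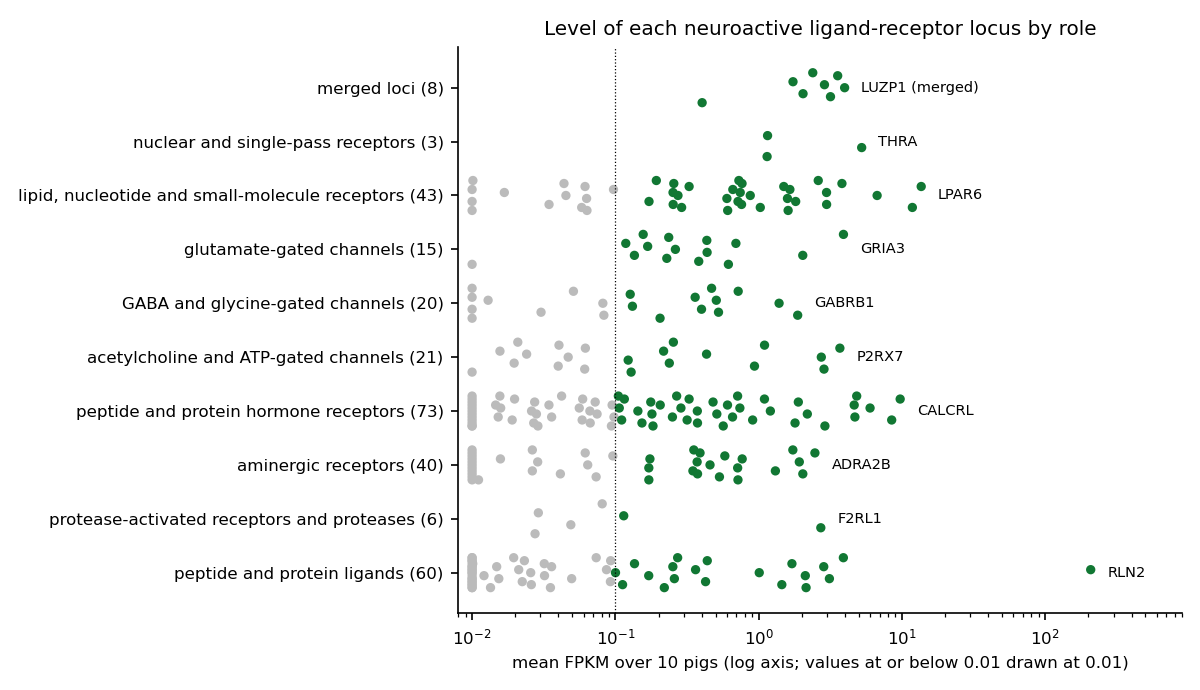
Mean FPKM over 10 pigs (horizontal log axis) of each member, 1 point per locus, sorted by role, with the number of loci of each role in parentheses. Green points are the 155 tested members at or right of the dotted line at 0.1 FPKM, grey points are those below it, the gene named in each row has the highest level, and the single unclassed locus (TRPV1, 0.0268) is not drawn.

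Relaxin had the highest mean of the ligands, but this mean rested on 1 pig. RLN2 (chromosome 1, 216762882 to 216770145, plus strand), which encodes the peptide hormone relaxin, had 2.85, 2032, 2.33, 0.431 and 0.831 FPKM in control 1 to 5. In rpFSH 1 to 5 it had 26.0, 0.465, 1.63, 7.72 and 1.52 FPKM. The 3 pigs with the highest relaxin are also the 3 with the highest luteal marker sums, and control 2 alone held 301857 counts of the gene. The mean of 207.6 FPKM over the 10 pigs became 4.86 ± 8.23 (SD, n = 9) without control 2, and the median of the 10 pigs was 1.98. Positions throughout are those of the deposited table on Sscrofa11.1.

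Only 9 of the 60 ligand loci had a mean FPKM of at least 1. By the mean, relaxin was followed by ADM (3.90 ± 1.76, SD, n = 10), which encodes the vessel-relaxing peptide adrenomedullin and was above RLN2 in 7 of 10 pigs, and by PENK (3.12 ± 3.31), the precursor of the enkephalins. NPFF (2.84 ± 0.559), EDN3 (2.14 ± 0.947), TAC3 (2.12 ± 1.94), AGT (1.71 ± 1.59), PRL (1.45 ± 0.615) and EDN1 (1.01 ± 0.369) followed. TAC3 encodes neurokinin B, AGT the precursor of angiotensin, and EDN1 and EDN3 encode endothelins. PENK was uneven as well. It was at 8.68 and 9.41 FPKM in control 1 and control 3 but at 0.190, 1.75 and 1.08 in the other controls, and at 0.287 to 3.88 in the rpFSH treatment group. Several other peptide ligands had few or no reads. VIP, SST, AVP, GRP and EDN2 had a count of 0 in every pig, and NPY, GAL and OXT had mean FPKM of 0.0101, 0.00465 and 0.0319, with at most 9 counts in any pig.

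Receptors of peptide hormones were led by CALCRL and the endothelin receptors, whose cell of origin was not tested. CALCRL, which forms the adrenomedullin and CGRP receptors, had a mean FPKM of 9.71 ± 3.45 (SD, n = 10), with values from 5.25 in control 4 and rpFSH 1 to 14.9 in rpFSH 4. The endothelin receptors EDNRB (8.48 ± 3.39) and EDNRA (5.99 ± 1.55) came next. The neuropeptide Y receptors NPY1R (4.83 ± 2.34) and NPY2R (4.69 ± 2.69) and the angiotensin receptor AGTR1 (4.64 ± 1.03) lay within each other's spread. Below them were the galanin receptor GALR1 (2.90 ± 1.30), the neurokinin B receptor TACR3 (2.19 ± 1.12), the oxytocin receptor OXTR (1.89 ± 1.86) and the parathyroid hormone receptor PTH1R (1.79 ± 0.758). Of the 73 loci of this role, 12 had a mean FPKM of at least 1 and 37 were tested.

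Some ligands and their receptors were expressed together, and for others only a receptor or only the ligand was. These examples were chosen after their values were seen. The neurokinin B pair TAC3 and TACR3 had nearly equal mean FPKM of 2.12 and 2.19, but single pigs differed. TAC3 was at 0.144 in control 2 and at 6.97 in control 5, where TACR3 was at 1.08 and 1.24. Adrenomedullin and angiotensin precursor were both present together with CALCRL and AGTR1. NPY1R, NPY2R and GALR1 were expressed at 2.90 to 4.83 FPKM, although NPY, PYY (0.0224) and GAL were close to 0 in the same tissue. The converse held for PENK, since the opioid receptors OPRM1, OPRK1 and OPRD1 had mean FPKM of 0.0344, 0.0359 and 0.0152. The relaxin receptor RXFP1 (0.373 ± 0.421) and the related RXFP2 (0.739 ± 0.867) were low in most pigs. Both were at their highest in control 5, with 1.39 and 2.89 FPKM. Transcript levels do not give the amount of peptide.

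Of the 43 loci for receptors of lipids, nucleotides and other small molecules, 30 were tested and 13 had a mean FPKM of at least 1. The lysophosphatidic acid receptor LPAR6 had the highest level of all receptors (13.6 ± 4.27, SD, n = 10), with values from 8.24 to 19.5. S1PR1, the sphingosine 1-phosphate receptor known from endothelium and lymphocytes, followed at 11.8 ± 5.77 and was lowest in rpFSH 1 (3.92) and control 2 (5.81). GABBR1, a subunit of the metabotropic GABA receptor, was among the most even members, with 6.71 ± 1.08 and a range from 5.41 to 8.44. Its partner subunit GABBR2 had only 0.252 ± 0.279.

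The 40 loci for receptors of amines were low. ADRA2B, an alpha-2 adrenergic receptor, was the highest (2.47 ± 1.26, SD, n = 10). The serotonin receptors HTR2B (2.03 ± 0.464) and HTR2A (1.92 ± 1.28) and the histamine receptor HRH1 (1.73 ± 0.637) followed. Of 9 loci for trace amine receptors, which are best known from the olfactory epithelium, 8 had a count of 0 in every pig.

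Ligand-gated channels had few members above 1 FPKM. GRIA3, an AMPA-type glutamate receptor subunit, had 3.91 ± 2.23 (SD, n = 10), and GRIN3B, an NMDA-type subunit, had 2.03 ± 1.13. Among channels opened by ATP or acetylcholine, P2RX7 (3.69 ± 1.94), CHRNB1 (2.86 ± 0.881), P2RX5 (2.74 ± 0.748) and P2RX1 (1.10 ± 2.07) reached this level. GABRB1 (1.87 ± 1.00) and GABRA4 (1.39 ± 1.45), both subunits of the GABA-A receptor, lie next to each other on chromosome 8 and were the only GABA- or glycine-gated members above 1. The GABRB1 locus also holds an unnamed gene. The protease-activated receptor F2RL1 had 2.71 ± 2.80. Of the nuclear and single-pass receptors, the thyroid hormone receptor THRA was at 5.23 ± 1.76, and THRB (1.14 ± 0.670) and the leptin receptor LEPR (1.15 ± 1.76) were lower.

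A further 8 loci joined a receptor or ligand to another named gene, so that their values cannot be ascribed to the member. LUZP1 with HTR1D (3.98 ± 0.856, SD, n = 10) and AMBRA1 with CHRM4 (3.56 ± 0.219) were the highest of these. The only locus for gonadotropin-releasing hormone (GNRH1 with KCTD9, 2.88 ± 0.347) belongs here, too. Of the 8 loci, 6 had a coefficient of variation over the 10 pigs of 6.16 to 21.6%, whereas it was 66.2% for ADORA3 with TMIGD3 and 87.7% for the merged locus of CAMKK1. They remain among the 155 tested members in the counts below.

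The spread of members over the 10 pigs depended on their level. The coefficient of variation had a median of 57.2% for the 155 tested members and 31.4% for the 15015 other tested mRNAs, but members were also lower, with a median of the mean FPKM of 0.606 against 2.72. Between 0.1 and 0.3 FPKM the medians were 73.7% (47 members) and 76.9%, so members did not have the higher median there. Between 0.3 and 1 they were 76.2% (50 members) and 51.7%, and between 1 and 3 they were 43.5% (39 members) and 29.8%. Between 3 and 10 they were 37.7% (16 members) and 21.7%. At 10 FPKM or more they were 48.8% (3 members) and 27.8%, so the spread did not fall steadily with level. The spread over all pigs contains the difference between the groups. With the SD taken within the groups, the medians over all levels were 57.6% for members and 31.5% for the others. Single pigs stood out. Control 2 exceeded the next pig by more than 3 times in 8 members (5.16%), compared with 0.916% of all tested mRNAs, and control 5 did so in 6 members (3.87%) compared with 1.09%. The same held in rpFSH 1 for 1 member, the neuropeptide Y receptor NPY5R (0.645%, with 0.244% of all). Control 5 had the highest value of all pigs for 37 members, or 23.9%, and control 2 for 26 members, or 16.8%. Among all tested mRNAs these shares were 17.4 and 17.8%. The shares were not compared at a matched level, although members were lower and the spread depended on level. These are descriptions of the libraries, and genes are not independent replicates.

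In control 2 and rpFSH 1, the pigs with the highest luteal marker sums, 10 members (6.45%) were higher than in any other pig, a lower share than the 12.2% of all tested mRNAs with this order. S1PR5, another sphingosine 1-phosphate receptor, had 12.9 FPKM in control 2 and 12.2 in rpFSH 1, against 0.803 to 2.74 in the other 8 pigs. GRIA3 had 7.48 and 8.24 in the same pigs and at most 4.07 in the others. The nucleotide receptor P2RY2 had 1.54 and 3.15, with at most 0.508 elsewhere. P2RX7, NPY2R, RLN2 and ADRB1 were also among the 10. In rpFSH 4, whose luteal marker sum was the next highest, S1PR5 and GRIA3 had 2.74 and 4.07 FPKM, the highest of the other 8 pigs, and P2RY2 had 0.323. The opposite order, with both pigs below the other 8, was also seen for 10 members (6.45%, against 6.63% of all tested mRNAs), including S1PR1, EDNRA and THRB. GABRA4 was at 0.0476 and 0.138 in these pigs, but it was lower still in rpFSH 3 (0.0263). The cannabinoid receptor CNR1 was at 0.119 in control 2 and at 1.10 to 2.69 in the other 9 pigs. The part that luteal tissue has in these levels was not tested.

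Control 2 and control 5 shared a further set of members. In 12 members (7.74%) both controls were above the other 8 pigs, close to the 8.97% of all tested mRNAs with this order. They were LPAR3, TACR1, TACR2, CCKBR, GABRP, LHB, AGT, GIPR, LEPR, CYSLTR2, GHRL and a peptide receptor locus with no symbol (ENSSSCG00000014323). TACR2, a receptor of neurokinin A, had 2.78 FPKM in control 2 and 0.487 in control 5, against at most 0.443 elsewhere. LEPR had 6.03 and 1.51, against at most 1.02. The summed ciliated epithelium markers were highest in these same pigs, and their part in these levels was not tested.

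Control 5, with the highest smooth muscle markers, had the highest value of P2RX1, the ATP-gated channel known from smooth muscle. Its P2RX1 level was 6.83 FPKM, whereas the other controls had 0.0455 to 0.117 and the rpFSH treatment group had 0.114 to 1.51. RXFP2 was at 2.89 in control 5, at 0.251 or lower in the other controls and at 0.293 to 1.20 in the rpFSH treatment group. The muscarinic receptor CHRM3 was at 2.30 in control 5 and at 1.79 in rpFSH 3, and at 0.259 to 0.611 in the other 8 pigs. For RXFP2 every rpFSH pig was above controls 1 to 4, and for P2RX1 every one was except rpFSH 1, which was below control 4. The 4 measured Schwann and glia markers also had their highest sum in control 5 (3.46). It was 3.22 in rpFSH 3 and 0.995 to 2.37 in the other pigs. The smooth muscle sums of rpFSH 5 and rpFSH 2 (337 and 311) were above that of rpFSH 3 (267), whereas their CHRM3 was at 0.383 and 0.433. Ciliated epithelium markers were highest in control 5 as well. The part of any of these cell types in these values was not tested.

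**Figure D2:**
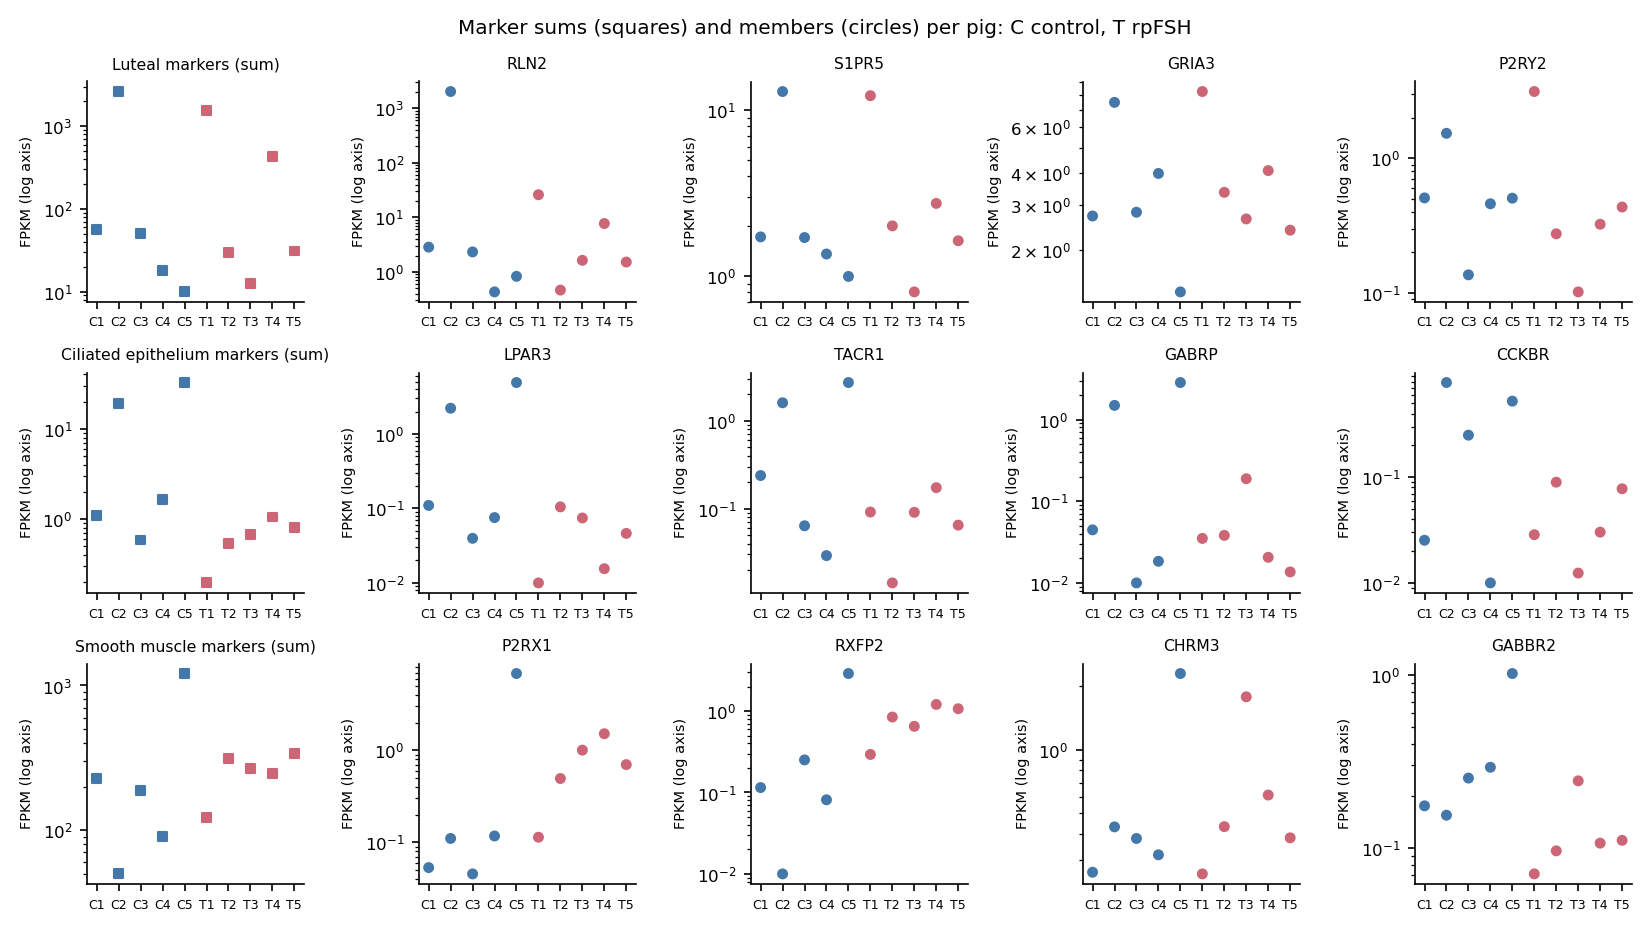
FPKM per pig (vertical log axis) of summed marker genes (squares) and of members (circles), with control 1 to 5 as C1 to C5 in blue and rpFSH 1 to 5 as T1 to T5 in red, and values at or below 0.01 drawn at 0.01. RLN2, S1PR5, GRIA3 and P2RY2 are high in C2 and T1 as the luteal markers are. LPAR3, TACR1, GABRP and CCKBR are high in C2 and C5 as the ciliated markers are. P2RX1, RXFP2, CHRM3 and GABBR2 peak in C5, where the smooth muscle, ciliated and glial markers (the last not drawn) are all highest.

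Between the rpFSH treatment group and the control group, more members were called lower than higher, and the lower ones mostly rested on few control pigs. A member was called when the unadjusted P of edgeR's quasi-likelihood test was under 0.05 and the log2 change was above 1 or below -1. Of the 155 tested members, 2 were called higher in the rpFSH treatment group (1.29%, with 0.508% of all 15170 tested mRNAs) and 9 were called lower (5.81%, with 2.58% of all). Together 7.10% of members were called and 3.09% of all tested mRNAs. Since the pathway came up through this contrast, nothing is read from the excess. The median log2 change was -0.04 over the members and -0.01 over all tested mRNAs, with 72 members above 0 and 83 below. By edgeR, 0 members had an adjusted p under 0.05, 13 had an unadjusted P under 0.05 (4.76% of all tested mRNAs had), and the smallest adjusted p over all tested mRNAs was 0.992. DESeq2 gave 1 member (LPAR3) with an adjusted p under 0.05 (0.645%, with 0.58% of all tested mRNAs) and 15 with an unadjusted P under 0.05 (9.68%, with 6.04% of all). Limma gave 0 members with an adjusted p under 0.05 and 5 with an unadjusted P under 0.05 (3.23%, with 3.03% of all).

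The called members had different roles. They were 3 ligands (RLN2, LHB and IAPP), 3 receptors of peptides (OXTR, TACR1 and CCKBR), 2 receptors of small molecules (LPAR3 and GABBR2), the serotonin receptor HTR2A, the GABA-A subunit GABRP and the protease-activated receptor F2RL1. All but OXTR and HTR2A were lower in the rpFSH treatment group. LHB was the ninth by P among the lower ones and is outside the naming rule, which stopped at 8 in each direction, so it was named after its values were seen.

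The oxytocin receptor OXTR (chromosome 13, 65113597 to 65154294, minus strand) was called higher. Its FPKM was 0.846, 0.988, 1.24, 0.249 and 0.708 in control 1 to 5, and 3.23, 0.540, 1.66, 3.16 and 6.29 in rpFSH 1 to 5. All rpFSH pigs except rpFSH 2 were above every control. The log2 change was 1.94 ± 0.59 (SE, n = 5 each), and OXTR was called with any 1 pig left out. Its locus also holds an unnamed gene (ENSSSCG00000033575) and overlaps CAV3 on the other strand, whose own locus had at most 0.363 FPKM, and reads of overlapping genes cannot be told apart here because the strand setting of the counting is not given in the sources used here.

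HTR2A (chromosome 11, 20555709 to 20621062), a serotonin receptor found on smooth muscle and neurons, was the other one called higher. Control 1 to 5 had 1.64, 0.369, 2.21, 1.12 and 0.722 FPKM and rpFSH 1 to 5 had 1.29, 3.86, 1.34, 2.45 and 4.20, so the groups overlapped. The log2 change was 1.18 ± 0.51 (SE, n = 5 each), and the call was lost without control 2, 4 or 5 or rpFSH 2, 4 or 5, with log2 changes from 0.95 to 1.21.

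F2RL1 (chromosome 2, 85732082 to 85747621), the receptor that trypsin-like proteases activate, differed in the most regular way among those called lower. It had 10.0, 1.85, 4.53, 2.02 and 2.44 FPKM in control 1 to 5 and 0.610, 1.77, 0.504, 1.83 and 1.54 in rpFSH 1 to 5. In FPKM every rpFSH pig was below every control, although control 2 and rpFSH 4 were separated by a narrow gap. Their counts, 489 of a total of 74480245 and 464 of 69177976, had the opposite order per library total. The log2 change was -1.66 ± 0.56 (SE, n = 5 each), and the call held with any 1 pig left out, although without control 1 the log2 change was -1.05, close to the limit of the call. Such a lack of overlap in FPKM was seen for 2 of the 155 members (1.29%), F2RL1 and the muscarinic receptor CHRM5, and for 0.547% of all tested mRNAs. The opposite, every rpFSH pig above every control, was seen for 0 members and for 0.0791% of all. CHRM5 had 0.365 to 0.697 FPKM in the control group and 0.0204 to 0.322 in the rpFSH treatment group, with a log2 change of -1.20 ± 0.57, and was not called by edgeR.

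IAPP, which encodes amylin, was lower as well, but at a level of few reads. Control 1 to 5 had 0.388, 0.0789, 0.326, 0.128 and 0.327 FPKM and rpFSH 1 to 5 had 0.0798, 0.155, 0.101, 0.0604 and 0.0646. The log2 change was -1.34 ± 0.52 (SE, n = 5 each). The low value of control 2 and that of control 4 overlapped with the rpFSH treatment group, and the locus lies within the span of SLCO1A2 on the other strand. Without control 1, 3 or 5 or rpFSH 1, 4 or 5 it was not called, with log2 changes from -1.28 to -1.14.

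LPAR3, TACR1, CCKBR, GABRP and LHB had in common that control 2 and control 5 were far above the rest. LPAR3 (chromosome 6, 128860210 to 128937763), a lysophosphatidic acid receptor known for its role in the uterus, had 0.110, 2.22, 0.0397, 0.0754 and 4.91 FPKM in control 1 to 5. In rpFSH 1 to 5 it had 0.0001 (the lowest value that the table writes), 0.105, 0.0745, 0.0155 and 0.0462. Controls 1, 3 and 4 thus lay among the rpFSH pigs. The log2 change was -4.77 ± 1.51 (SE, n = 5 each) with all pigs and -0.51 without control 2 and control 5, where LPAR3 was no longer called.

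TACR1 (chromosome 3, 67839849 to 68021724), the receptor of substance P, followed the same order. It had 0.238, 1.61, 0.0637, 0.0291 and 2.73 FPKM in control 1 to 5 and 0.0914, 0.0142, 0.0907, 0.173 and 0.0648 in rpFSH 1 to 5. The log2 change was -3.33 ± 1.16 (SE, n = 5 each). It was -2.38 without control 5 and -0.26 without control 2 and control 5, and TACR1 was called in neither case. CCKBR, the gastrin receptor, had 0.787 in control 2, 0.524 in control 5 and 0.250 in control 3, but 0.0253 and 0.00494 in control 1 and control 4. Its rpFSH values were between 0.0124 and 0.0897, and its log2 change went from -2.61 ± 1.07 to -0.89 without control 2 and control 5. The call was also lost without control 2 (-1.96), control 5 (-2.36) or any of rpFSH 1, 3 and 4 (-2.48 to -2.37).

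GABRP, the pi subunit of the GABA-A receptor, which is found in reproductive tract epithelium, was at 1.49 and 2.84 FPKM in control 2 and control 5. It was at or below 0.0446 in the other controls and between 0.0136 and 0.189 in the rpFSH treatment group. LHB, the beta subunit of luteinizing hormone, was at 0.754 and 1.87 in control 2 and control 5 and at 0.0659 to 0.168 in the other 8 pigs. The end of its locus overlaps RUVBL2 on the other strand, which had 2.97 to 5.64 FPKM. Log2 changes of -3.75 ± 1.62 for GABRP and -1.95 ± 0.86 for LHB (SE, n = 5 each) turned to 1.57 and 0.54 without these controls. GABRP was called in 4 of 10 leave-one-out fits and was lost without control 2 (-3.47), control 5 (-2.57) or rpFSH 1, 2, 4 or 5 (-3.64 to -3.50). LHB was called in 3 of them, with log2 changes from -2.24 to -0.81, and was kept without control 1, 3 or 4 alone. The ciliated epithelium markers stand apart in the same controls, as given above.

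GABBR2 and RLN2 each rested on 1 control pig. GABBR2, the partner of GABBR1 in the metabotropic GABA receptor, had 0.176, 0.155, 0.254, 0.293 and 1.02 FPKM in control 1 to 5 and 0.0711, 0.0966, 0.245, 0.107 and 0.111 in rpFSH 1 to 5. Apart from rpFSH 3, the rpFSH pigs were below all controls. Its log2 change of -1.49 ± 0.59 (SE, n = 5 each) was -0.71 without control 5 and was then not called, nor was it without rpFSH 1, 2, 4 or 5 (-1.44 to -1.33). The log2 change of RLN2 was -5.72 ± 2.48 with all pigs, -5.73 to -5.41 and not called without rpFSH 2, 3, 4 or 5, and 2.26 without control 2. The direction of the relaxin difference was thus set by that pig, which also has the highest luteal markers.

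**Figure D3:**
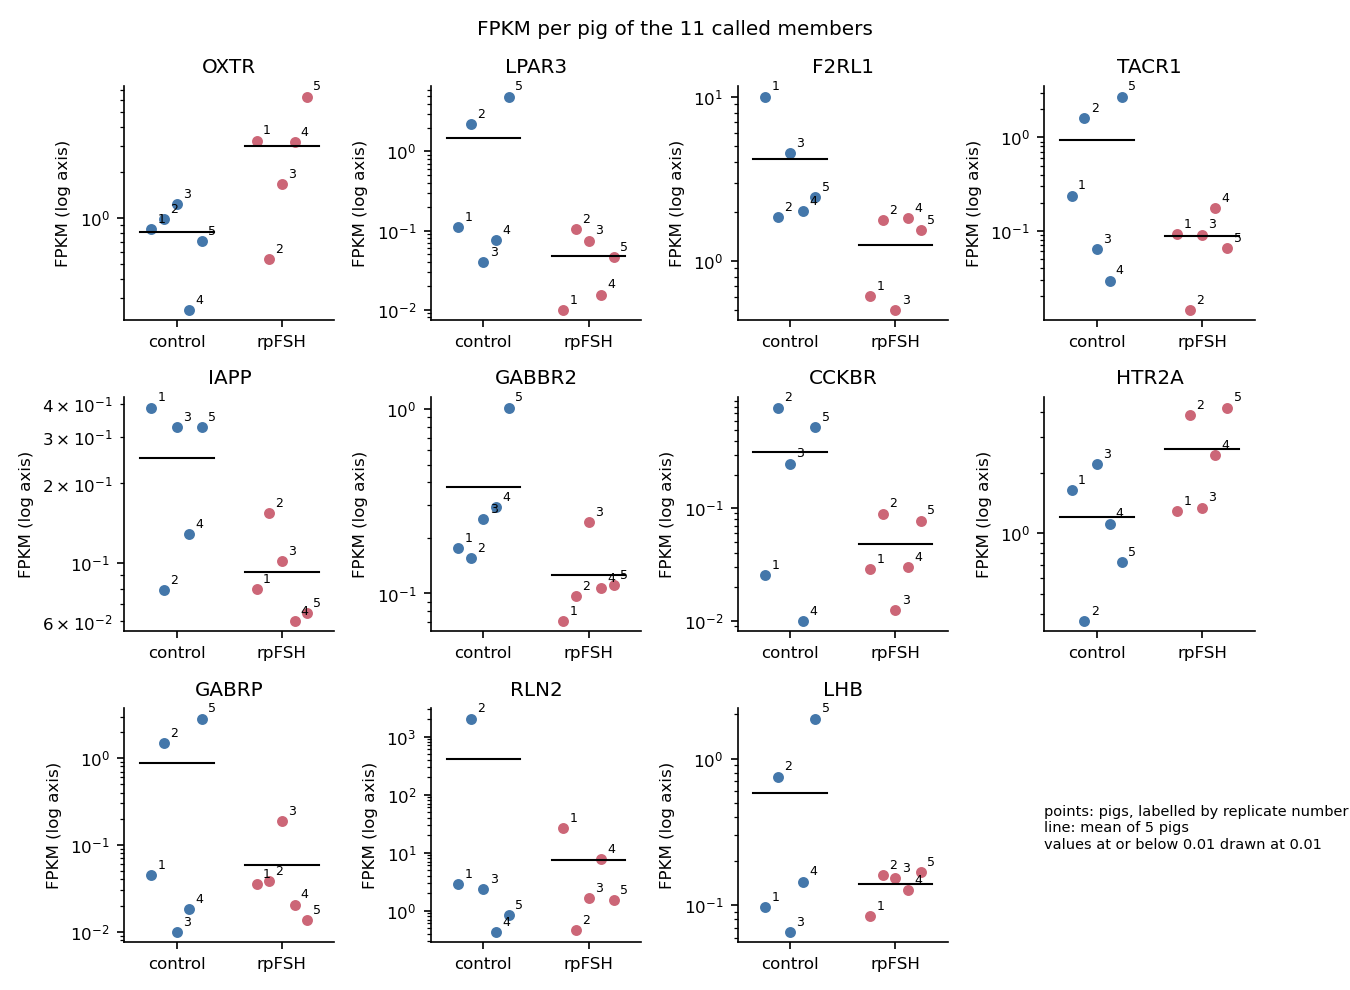
FPKM per pig (vertical log axis) of the 11 called members in the control group (blue) and the rpFSH treatment group (red), with the replicate number beside each point and a line at the mean of the 5 pigs; values at or below 0.01 are drawn at 0.01. Control 2 and control 5 are far above the other controls for LPAR3, TACR1, GABRP and LHB, control 2 is for RLN2 and control 5 for GABBR2, whereas for F2RL1 every rpFSH pig is below every control.

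Without control 2 and control 5, the balance of the calls turned over. Then 11 members were called higher in the rpFSH treatment group and 5 lower, where 2.02 and 0.771% of all tested mRNAs were called (2.79% in either direction), and 3 members (OXTR, F2RL1 and IAPP) were called in both fits. The median log2 change moved to 0.14 for members and to 0.05 for all tested mRNAs. Those called higher were OXTR, the receptors RXFP2 (2.48 ± 0.57, log2 change ± SE), DRD2 (2.54 ± 0.61), P2RY6 (1.86 ± 0.51), PTGIR, HTR7, GRM5, AVPR1A and AVPR2, the channel P2RX1 (3.43 ± 0.83), and the merged locus of CAMKK1, which lies beside P2RX1. Those called lower were F2RL1, IAPP, GRIK2, ADCYAP1R1 (-1.61 ± 0.46), the receptor of the peptide PACAP, and PENK (-1.67 ± 0.73). In this fit 3 controls were set against 5 rpFSH pigs. Leaving out controls with high values raises the log2 change of those genes by construction. Of those called higher, P2RX1, RXFP2, DRD2, PTGIR, HTR7 and CAMKK1 had their highest value in control 5, and AVPR1A and P2RY6 in control 2.

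P2RX1 shows how the fits differ. Controls 1, 3 and 4 had 0.0532, 0.0455 and 0.117 FPKM, and rpFSH 1 to 5 had 0.114, 0.494, 1.01, 1.51 and 0.700. Among these 8 pigs only rpFSH 1 and control 4 were out of order. With control 5 at 6.83 in the fit, the log2 change was -0.82 ± 1.36. The smooth muscle marker sums were 90.5 to 226 in controls 1, 3 and 4 and 122 to 337 in the rpFSH treatment group, and their part in the P2RX1 values was not tested.

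When control 2 and rpFSH 1, the pigs with the highest luteal marker sums, were both left out, 5 members were called higher and 6 lower, with 0.745 and 1.25% of all tested mRNAs (1.99% in either direction). OXTR, HTR2A, F2RL1, IAPP, LPAR3 and GABBR2 were called in this fit and with all pigs. The added ones were GALR1 (1.11 ± 0.33, log2 change ± SE), P2RY6 and GRM5, called higher, and HTR1E and ADCYAP1R1, called lower. GALR1 had 2.26, 3.00, 2.64, 0.896 and 2.14 FPKM in control 1 to 5 and 1.82, 2.79, 4.12, 5.44 and 3.90 in rpFSH 1 to 5. With all pigs its log2 change was 0.80 ± 0.35, short of the limit of 1, as was that of GRIN2D (0.87 ± 0.37). This fit was added after the data were seen.

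**Figure D4:**
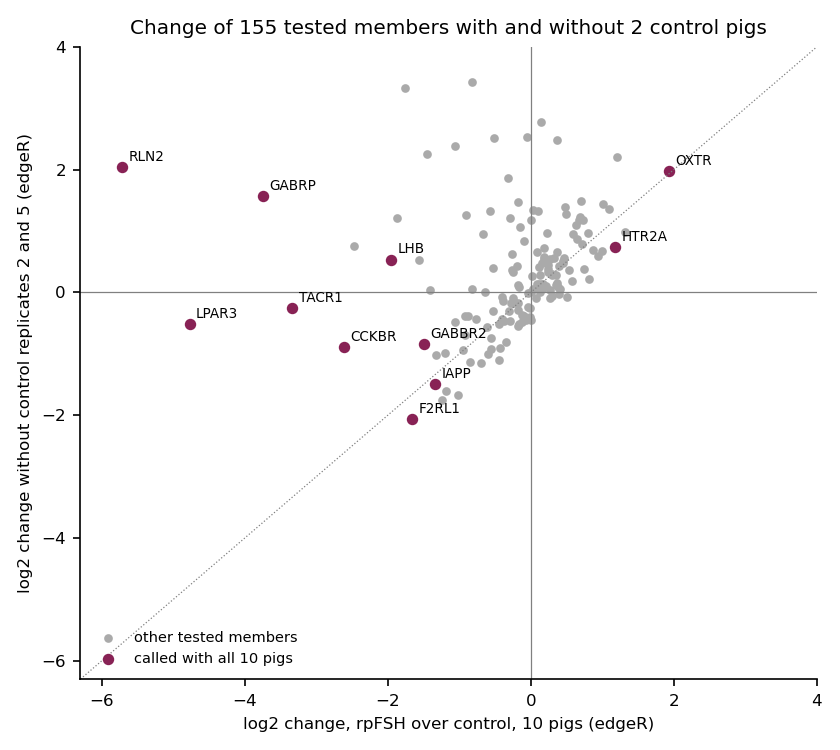
Log2 change (rpFSH over control, edgeR) of the 155 tested members with all 10 pigs (horizontal) and without control 2 and control 5 (vertical), with the 11 members called with all pigs in purple and a dotted line of equality. OXTR, F2RL1 and IAPP stay near the line, whereas LPAR3 and TACR1 move close to 0 and RLN2, GABRP and LHB move to the other side of 0.

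For the most abundant receptors the difference between the groups was below the limit of the call. The log2 change ± SE was -0.04 ± 0.28 for LPAR6, -0.06 ± 0.47 for S1PR1, 0.04 ± 0.16 for GABBR1 and 0.18 ± 0.21 for AGTR1. It was 0.27 ± 0.32 for CALCRL, 0.45 ± 0.31 for EDNRB, 0.16 ± 0.26 for EDNRA and -0.44 ± 0.28 for THRA. EDNRB had its highest value, 16.6 FPKM, in rpFSH 5, against 4.84 to 10.5 in all other pigs. A P above the limit does not show that these levels were equal.

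The signal carriers downstream of these receptors were examined as a separate list of 55 genes for G protein subunits, phospholipases, arrestins, receptor kinases, RGS proteins, calcium release channels and RAMPs, none of which is a member. Of these, 47 were tested and 0 were called by edgeR, DESeq2 or limma on log2 (FPKM + 1). Among all tested mRNAs, 3.09, 3.47 and 1.13% were called by these fits. At such shares few calls would fall among 47 genes, so their absence does not show that the list was unchanged. By edgeR 1 of them (RGS16) had an unadjusted P under 0.05, and by DESeq2 2 had, with 4.76 and 6.04% of all tested mRNAs. The median log2 change was -0.04. RGS16, which switches off G proteins, had 0.634 to 0.897 FPKM in the control group and 1.03, 0.692, 0.628, 1.68 and 1.83 in rpFSH 1 to 5, with a log2 change of 0.81 ± 0.33 (SE, n = 5 each).

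Which receptor of a related pair had the higher FPKM was tested within each pig, as FPKM is per gene length and levels did not enter the choice of members. However, the pairs themselves were chosen with earlier results of these data known. The p measures only whether a difference repeats between pigs in the pairs so chosen. A fixed bias of a locus, such as its assembled length or reads of an overlapping gene, would repeat in the same way and was not tested. Of 30 pairs of related receptors or channel subunits, 13 had both genes among the members and at least 3 counts of both in every pig. The mean log2 ratio over all 10 pigs was set against all sign flips over pigs (an exact permutation test, two-sided), for which 0.00195 is the smallest p possible, with Benjamini-Hochberg adjustment over the 13 pairs. An adjusted p under 0.05 was found for 7 pairs.

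In 5 pairs the order was the same in 10 of 10 pigs (exact permutation p = 0.00195, adjusted p = 0.00508 for each). Among the sphingosine 1-phosphate receptors, S1PR1 was higher than S1PR3 by a log2 ratio of 1.92 ± 0.747 (SD, n = 10), or 3.80-fold, and higher than S1PR2 by 2.06 ± 0.951, or 4.17-fold. LPAR6 exceeded LPAR1 by 4.59-fold, where the log2 ratio of LPAR1 to LPAR6 was -2.20 ± 0.694. The adenosine receptor ADORA2B exceeded ADORA1 by 4.84-fold (log2 ratio of ADORA1 to ADORA2B of -2.28 ± 0.365). These receptors couple to opposite G proteins, as ADORA2B raises and ADORA1 lowers cyclic AMP. THRA was 4.87-fold higher than THRB (2.29 ± 0.386), and its ratio was, with that of the adenosine receptors, among the most even between pigs.

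The histamine receptor HRH1 was higher than HRH2 in 9 of 10 pigs, by 5.53-fold (log2 ratio 2.47 ± 1.26, SD, n = 10, exact permutation, adjusted p = 0.00846). ADRA2B was higher than ADRA2A in 8 of 10 pigs, by 7.86-fold (log2 ratio of ADRA2A to ADRA2B of -2.98 ± 2.00, exact permutation, adjusted p = 0.0145). Without control 2 and rpFSH 1 the log2 ratio was -3.05, with an adjusted p of 0.0580 by the same exact test over 8 pigs. The exceptions were control 5 and rpFSH 3, in which ADRA2A was at 2.03 and 0.972 FPKM and ADRA2B at 1.93 and 0.725. CHRM3 was also at its highest in these pigs.

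No order was found for the other 6 pairs at this number of pigs. EDNRB was higher than EDNRA in 7 of 10 pigs (log2 ratio of EDNRA to EDNRB of -0.46 ± 0.607, SD, n = 10, exact permutation, adjusted p = 0.0734). By the same exact test, the adjusted p was 0.0339 without control 5 and 0.0381 without rpFSH 2. TACR2 was higher than TACR1 in 9 of 10 pigs, and only control 5 had the opposite order (log2 ratio of TACR1 to TACR2 of -1.46 ± 1.75, exact permutation, adjusted p = 0.0508). Without control 5 the ratio was -1.90 (exact permutation, adjusted p = 0.00846). VIPR1 and VIPR2, receptors of the peptide VIP whose own transcript had no count, had a log2 ratio of 0.73 ± 1.29 (exact permutation, adjusted p = 0.145). For HTR2A and HTR2B it was -0.37 ± 1.10, for P2RY1 and P2RY14 0.10 ± 0.920 and for CHRM2 and CHRM3 0.07 ± 1.11, with adjusted p of 0.395, 0.791 and 0.855 by the same exact test. These p do not show that the levels were equal.

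**Figure D5:**
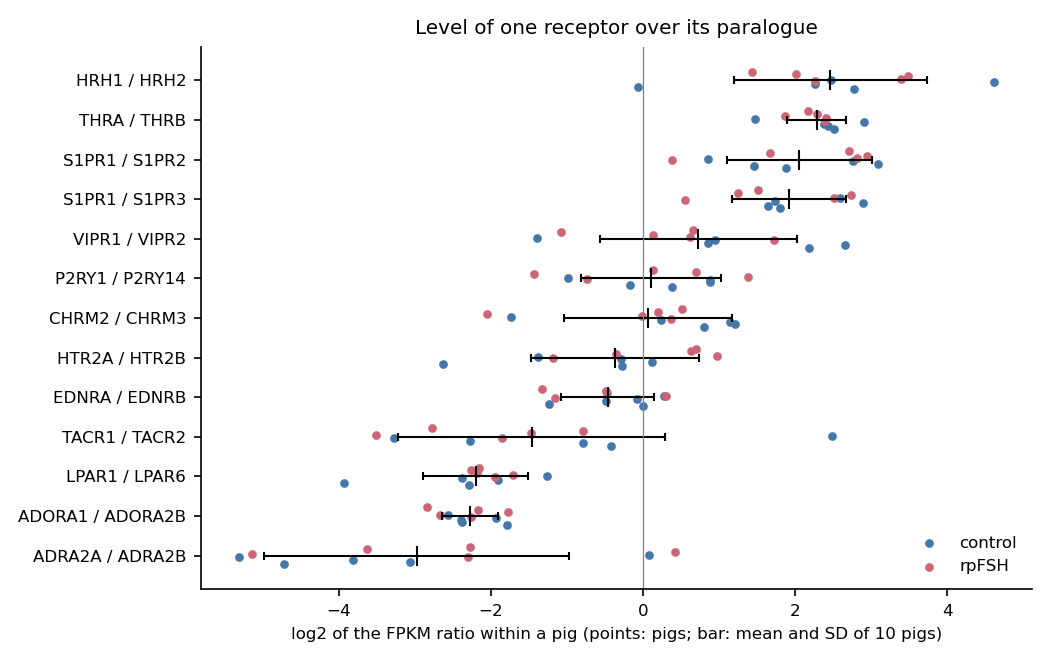
Log2 of the FPKM ratio of related receptors within a pig (horizontal axis) for the 13 pairs, with control pigs in blue and rpFSH pigs in red and a bar for the mean and SD of 10 pigs; values above 0 mean that the gene named first is higher. S1PR1 over S1PR3 and S1PR2, THRA over THRB, LPAR6 over LPAR1 and ADORA2B over ADORA1 keep their order in all 10 pigs.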

How the data were processed

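The authors trimmed the reads, mapped them to the pig genome (Sscrofa11.1) and assembled and quantified loci with StringTie, and the submitters' processing notes name HISAT2 2.0, Bowtie 0.12.2 and StringTie 1.3.0. The deposited table gives FPKM per locus and pig, estimated by the authors with StringTie and Ballgown, and writes 0.0001 as the lowest value. The same deposited table gives a whole-number count per locus and pig, and how these counts were made is not given in the sources used here. The methods describe rRNA removal with a strand-marking protocol, whereas the labels describe poly(A) selection. FPKM values are per length and were used for levels, and counts were used for tests. A count of the reads of overlapping or merged loci cannot be split here.

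Groups were compared with the quasi-likelihood test of edgeR 4.0.16 (TMM) in R 4.3.3 on the counts of 15170 protein-coding loci whose mean FPKM was 0.1 or more, with Benjamini-Hochberg adjustment over these loci. The methods used Ballgown's test with the same limits of an unadjusted P under 0.05 and a log2 change above 1 or below -1. Alternatives were DESeq2 1.42.0, limma 3.58.1 on log2 (FPKM + 1) or log2 (FPKM + 0.1) with the log2 ratio of group mean FPKM as the change, other size factors, other filters, a replicate block, and leaving out pigs. Paired levels were tested in Python 3.11.15 with every one of 1024 sign flips. On simulated data for the comparison of the groups, with 200 of 15170 genes changed by a log2 of 2, edgeR called 91% and DESeq2 91.5% of these, and 4.56 and 5.40% of the unchanged genes had an unadjusted P under 0.05. The simulated counts were drawn independently for each gene, without pigs that stand apart in many genes. They cover all tested mRNAs, whereas members were lower and had a larger median spread, so these shares do not give the share for members.

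The members, roles, pairs and lists were chosen with earlier results of these data known. Of the 290 members, 27 had only an identifier in the table and 18 of these got a symbol from reference gene tables; the locus that these tables name LHCGR was left out by the rule for that reason. The values of a further member and of a marker gene are not reported here. The roles of 40 members were assigned from their description after the table was read. In addition, 56 other loci of the table carry the name of 27 members and were not used. Named were the 2 highest members of each role, called members (at most 8 in each direction by P), genes of the pairs that could be run and at most 2 downstream genes in each direction, and further members shown for their pattern over pigs were chosen after their values were seen. Replicates are pigs numbered by the labels. No sequencing batch is named in the labels or methods. Protein and promoter sequences were not used here.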

Additional observations from a re-analysis of the deposited data

Results flagged for a closer look

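In 104 groups of 5 pigs, made of the members named or shown above, 20 values of 15 members lay far from the rest of their group (Dixon's ratio over 0.71). For normally distributed values chance flags about 1 in 20 groups. The ratio was taken on FPKM without a log transformation, and its rate for skewed values was not determined. Control 2 gave 7 of these values, rpFSH 1 gave 5, control 5 gave 4, rpFSH 3 gave 3 and rpFSH 5 gave 1, all of them the highest of their group. Since several members were shown because of such values, their number is not a rate.

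The FPKM values of control 2 were 2032 for RLN2, 12.9 for S1PR5, 8.88 for P2RX7, 6.03 for LEPR, 2.79 for P2RX6, 2.78 for TACR2 and 1.54 for P2RY2. Those of rpFSH 1 were 26.0 for RLN2, 12.2 for S1PR5, 8.24 for GRIA3, 3.15 for P2RY2 and 1.42 for NPY5R. RLN2, S1PR5 and P2RY2 thus stood out in both groups, each time in the pig with the highest luteal marker sum of its group.

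Control 5 stood out with 6.83 for P2RX1, 2.89 for RXFP2, 2.30 for CHRM3 and 1.02 for GABBR2. In rpFSH 3 the values were 1.79 for CHRM3, 0.245 for GABBR2 and 0.189 for GABRP, and in rpFSH 5 EDNRB was at 16.6. The cause of these values was not tested.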

How the results depend on the processing

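With all pigs, 2 members were called higher, 9 lower, and 468 mRNAs in all. Tested were 155 of the members and 15170 mRNAs, except under other filters. These were 260 and 18204 with no filter, 178 and 15086 with filterByExpr, and 58 and 11315 at a mean FPKM of at least 1. Counts under different filters therefore do not have the same base. Members called higher were 4 with no filter, 1 with a replicate block, 5 without control 2 and rpFSH 1, 11 without control 2 and control 5, and 1 to 5 with 1 pig left out. Members called lower were 3 by limma with either pseudocount, 2 at a mean FPKM of at least 1, 1 with the block, 5 without control 2 and control 5, and 3 to 12 with 1 pig left out. All called mRNAs were 236 by limma with a pseudocount of 0.1, 172 with 1, 145 at a mean FPKM of at least 1 and 190 with the block. They were 302 without control 2 and rpFSH 1, 423 without control 2 and control 5, 660 with no filter, and 378 to 565 with 1 pig left out. The same 11 members were called with RLE or upper-quartile size factors and with filterByExpr, and library totals alone added ADCYAP1R1. DESeq2 shared 10 of its 13 called members with edgeR. Under the block 1 called member (LPAR3) was kept and GRIN2A was added. Replicate numbers were taken only as names of pigs. Deviations of same-numbered pigs had r from -0.294 to -0.0266, but a shared batch of same-numbered pigs was not tested. The median log2 change without control 2 and control 5 was 0.14 for members and 0.05 for all tested mRNAs. RLN2 reversed to 0.96 with the block, 0.87 without control 2 and rpFSH 1, 2.26 without control 2 and 2.04 without control 2 and control 5, and GABRP reversed to 1.57 without the latter.

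With 1 pig left out, RLN2 ranged from -7.08 to 2.26.

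Mean log2 ratios with 1 pig left out ranged from -0.55 to -0.37 for EDNRA and EDNRB (adjusted p under 0.05 without control 5 or rpFSH 2), -0.040 to 0.27 for P2RY1 and P2RY14, -1.90 to -1.24 for TACR1 and TACR2 (under 0.05 without control 5) and -0.061 to 0.30 for CHRM2 and CHRM3. Without control 2 and control 5, TACR1 and TACR2 had -2.04, now under 0.05, and HTR2A and HTR2B had 0.041. Without control 2 and rpFSH 1, ADRA2A and ADRA2B had -3.05, no longer under 0.05, HTR2A and HTR2B 0.015 and CHRM2 and CHRM3 -0.11. The cause of these shifts was not tested. Depth limits the members below 0.1 FPKM, which were not tested.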
